A study of Drosophila melanogaster with 20 samples.

Results

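RNA of *Drosophila melanogaster* embryos that lacked both isoforms of Ada2b was compared here with RNA of embryos of the same mutant background that carried both isoforms back as transgenes. The members were chosen by genotype alone: the 4 libraries of *Ada2b* null embryos (null) and the 4 libraries of *Ada2b* embryos with the Ada2b-PA and Ada2b-PB transgenes (PA+PB), 8 of the 20 libraries of the series. The null embryos carried 2 different null alleles of *Ada2b* (*Ada2b842* and *Ada2b1*) together with *elav-Gal4* and *UAS-10XGFP*, so that embryos with both alleles could be picked by hand for their GFP. PA+PB embryos carried the same alleles plus a single copy of each isoform, driven in trans by the regulatory sequences of *Ada2b* itself. The other 12 libraries came from embryos with only Ada2b-PA (PA), from embryos with only Ada2b-PB (PB) and from *elav-Gal4>GFP* embryos without the *Ada2b* alleles (WT), with 4 libraries each. All of the null and PA+PB embryos were labelled as stage 12 to 14, as were those of WT except replicate 3, for which 1 label gave stage 12 to 15 and the title 12 to 14. Each library was made from a pool of whole embryos, and the comparison asks which transcript levels differ with the loss of Ada2b when the alleles and the GFP marker are shared by both groups.

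Gcn5 is a histone acetyltransferase that adds acetyl groups to histone H3 at promoters, and it works only as a subunit of larger complexes. Ada2b holds Gcn5 in several of these: isoform PB sits in SAGA and ADA, whereas isoform PA nucleates CHAT around the Chiffon protein, and the related adaptor Ada2a holds Gcn5 in ATAC. Early fly embryos run on RNA loaded into the egg by the mother, which is destroyed as the zygotic genome is switched on, so whole-embryo RNA at mid-embryogenesis is a mixture of remaining maternal RNA and new transcripts of many tissues.

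*Ada2b* itself (FBgn0037555, dm6 chromosome 3R from 8236632 to 8240515, minus strand, overlapped by *PolI* on the other strand) was low in all null libraries. It had 45.1, 47.1, 33.6 and 30.7 CPM in null replicates 1 to 4, against 202, 302, 368 and 227 CPM in PA+PB replicates 1 to 4; CPM are counts scaled to the library's TMM-normalized total, and values are given in replicate order throughout. The groups did not overlap, and the null fell 6.73-fold (log2 fold change -2.75, SE 0.34, FDR = 0.000527). PA+PB embryos lay above the WT embryos too, which had 109 to 175 CPM, and reads of both transgenes may be counted on this gene. Reads of the GFP transgene were too few to check the selection, with 5, 0, 6 and 51 counts in the null and 0, 0, 0 and 4 counts in PA+PB.

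The libraries of the 2 groups differed in depth and in content, and each result below has to be read beside this. Between 17513429 and 28661289 counts fell on genes in the null libraries and between 4788765 and 13816521 in the PA+PB libraries, where replicate 1 had 63.2% of its reads not aligned and the others 12.1% to 14.0%. With all 8 libraries thinned to 4788765 counts, 11183 to 11335 genes were detected in the null, against 9712, 8785, 7235 and 10982 genes in PA+PB replicates 1 to 4 (difference 2075.75 genes, 2-sided exact permutation test over 70 splits, p = 0.0286, the smallest that 4 libraries against 4 allow). The 31 markers of embryonic tissues fixed for this comparison (neurons, neuroblasts, glia, muscle, hemocytes, trachea, epidermis, gut and germ cells) summed to 6494 to 7865 CPM in the null, against 6218, 1986, 1216 and 7276 CPM in PA+PB replicates 1 to 4. All 31 markers had counts in every null library, 9 were at 0 counts in PA+PB replicate 3, 1 in replicate 1 and 0 in replicates 2 and 4. PA+PB replicates 1 and 4 were thus nearer to the null in the sum, although both lay below the null range in muscle, glia, trachea and germ cell markers and replicate 4 in neuroblast markers, and hemocyte markers alone gave 2401 CPM of the sum of replicate 4. The germ cell sum was mostly *ovo*, with means of 179 CPM in the null and 71.8 CPM in PA+PB. *vas* went the other way, with means of 5.75 and 8.13 CPM, and *nanos* was low in both groups (2.12 and 0.70 CPM). Replicates 2 and 3 lay below the null range in markers of every tissue: neuronal markers summed to 805 to 1021 CPM in the null, against 840, 288, 75.1 and 864 CPM in PA+PB, and muscle markers to 2122 to 2940 CPM in the null, against 1513, 294, 385 and 1856 CPM. In pooled whole embryos, fewer cells of a type and less RNA per cell cannot be told apart. With low markers and few genes detected, it is in question whether the embryos of PA+PB replicates 2 and 3 were of the labelled stage, which was not tested and bears on each value of PA+PB that includes them. Counts are therefore given below both with all libraries and without PA+PB replicates 2 and 3, a choice made after their markers were seen.

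**Figure D1:**
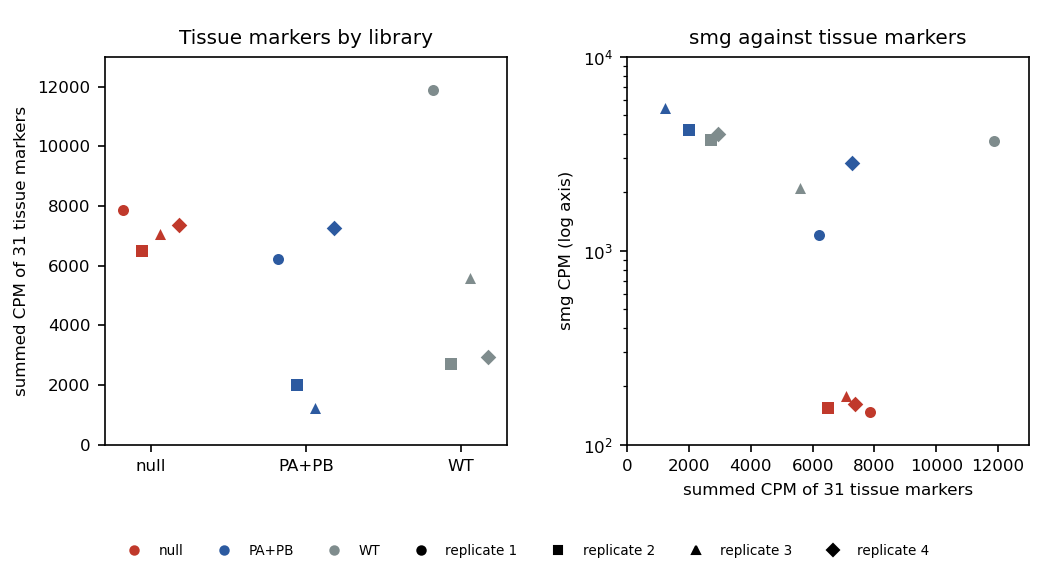
Summed TMM-normalized CPM of the 31 tissue markers in each null, PA+PB and WT library (left), and the CPM of *smg* on a log axis against that sum (right); colours give the genotype and symbols the replicate number. PA+PB replicates 2 and 3 have the lowest marker sums, 1986 and 1216 CPM, and the most *smg*, 4194 and 5435 CPM. *smg* lies at 147 to 178 CPM in the null and at 1202 to 5435 CPM in PA+PB.

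Genes called lower in the null far outnumbered those called higher. Of 10904 genes tested, 357 (3.27%) were lower and 12 (0.11%) higher in the null than in PA+PB, 369 (3.38%) in all, with a called gene being one whose FDR was under 0.05 and whose log2 fold change reached 0.5 in size. The null CPM lay below every PA+PB library at 354 of the 357 lower genes and above every one at all 12 higher genes, against 15.7% and 17.7% of all genes tested. Over all genes tested, 1711 lay wholly below and 1935 wholly above PA+PB, so few calls in the higher direction do not mean that few transcripts were higher. The median log2 fold change was -1.98 at the lower genes and 4.61 at the higher genes, against -0.27 over all genes. Among the lower genes 354 fell at least 2-fold, 174 at least 4-fold and 47 at least 16-fold. At an unadjusted p under 0.05 in edgeR's quasi-likelihood test, 1506 genes (13.8%) were lower and 361 (3.31%) higher.

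The number of calls depended on which libraries were in the fit. Without PA+PB replicates 2 and 3, 12 genes were lower and 4 higher, all of them among the 369. That fit holds 2 PA+PB libraries in place of 4. For each call lost there, fewer libraries and the content of these 2 cannot be told apart. All 357 lower genes kept a negative fold change in that fit, with a median of -1.39, and at 355 of them every null library lay below both PA+PB replicates 1 and 4. The 357 were picked with these same libraries, and at 354 the null already lay below all PA+PB libraries, so these counts are no separate support. With 1 library left out, 51, 34, 30 and 90 genes were called without null replicates 1 to 4. Without PA+PB replicates 1 to 4, 702, 62, 275 and 451 were called. Of the 369, 270 stayed called without PA+PB replicate 3 and 341 without replicate 4. PA+PB replicate 1, the shallowest, was the lowest of the 4 PA+PB libraries at 309 of the 357 genes, and replicate 3 the highest at 296. The part of the low tissue markers of PA+PB replicates 2 and 3 in the number of lower genes was not tested beyond these counts.

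**Figure D2:**
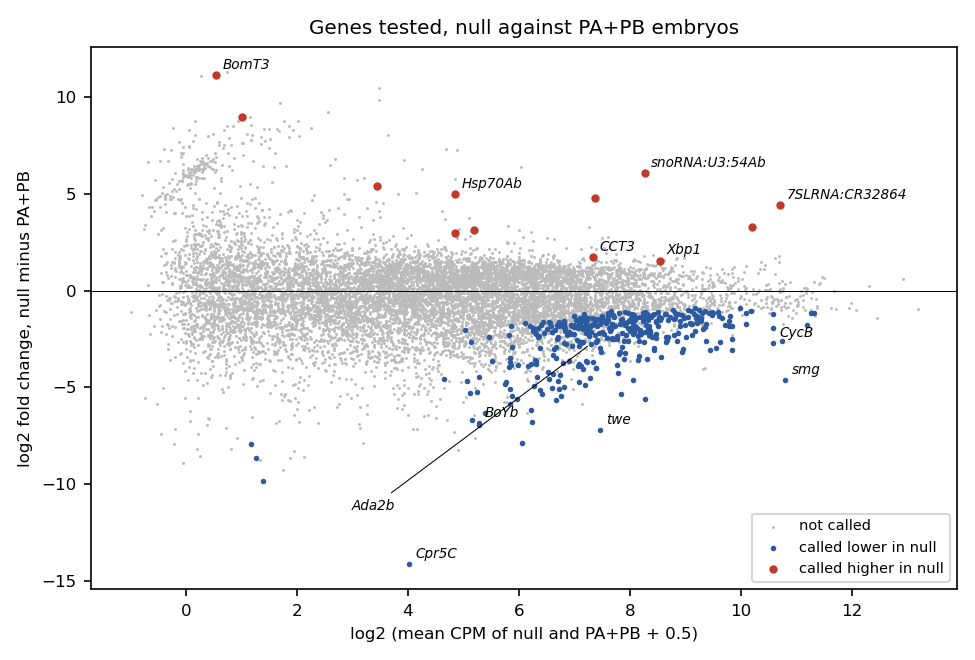
Log2 fold change (null minus PA+PB) of the 10904 genes tested against their mean level in both groups, log2(CPM + 0.5). Blue points are the 357 genes called lower and red points the 12 called higher in the null; most blue points lie among well-expressed genes.

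The 12 lower genes still called without PA+PB replicates 2 and 3 were *Ada2b*, *CG32425*, *Cpr5C*, *CG42240*, *Tao*, *msl-1*, *CG32365*, *retn*, *smg*, *BigH1*, *qkr54B* and *BoYb*, and they stayed past the threshold under every alternative in which they were tested. *smg* encodes Smaug, an RNA-binding protein that directs the destruction of maternal mRNAs (chromosome 3L from 8990317 to 8997989). It had 147, 155, 178 and 162 CPM in the null, against 1202, 4194, 5435 and 2829 CPM in PA+PB (24.4-fold lower, log2 fold change -4.61, SE 0.77, FDR = 0.00485). Its lowest PA+PB library was replicate 1, and its highest were replicates 2 and 3, the libraries with the lowest marker sums. The part of tissue content in this difference was not tested. *BigH1*, the linker histone of the early embryo (named after its values were seen), had 3.03, 1.58, 2.24 and 1.67 CPM in the null, against 49.1, 83.1, 234 and 78.3 CPM in PA+PB (log2 fold change -5.07, SE 0.87, FDR = 0.00679). *BoYb*, a Tudor-domain gene of the germline piRNA pathway (chromosome 3L from 22901912 to 22905470), had 2.18, 1.08, 0.47 and 0.97 CPM in the null, against 29.7, 104, 92.3 and 74.6 CPM in PA+PB (log2 fold change -6.83, SE 1.22, FDR = 0.00984). In each of the 3 genes the highest null library lay below the lowest PA+PB library.

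Several regulators of transcription and signalling were in the same group of 12. *retn*, an ARID-domain transcription factor (chromosome 2R from 23632610 to 23654820), had 83.7, 62.4, 114 and 93.2 CPM in the null, against 379, 1244, 1244 and 685 CPM in PA+PB (log2 fold change -3.16, SE 0.48, FDR = 0.00285). *msl-1*, a scaffold of the dosage compensation complex (chromosome 2L from 18683720 to 18688800), had 123, 104, 152 and 146 CPM in the null, against 316, 578, 635 and 568 CPM in PA+PB (log2 fold change -2.15, SE 0.32, FDR = 0.00285). *Tao*, a kinase that acts upstream of Hippo (chromosome X from 19569721 to 19579800), had 263, 238, 319 and 328 CPM in the null, against 708, 1067, 1292 and 901 CPM in PA+PB (log2 fold change -1.98, SE 0.31, FDR = 0.00287). At each of these genes the highest null library stayed under the lowest PA+PB library, which was replicate 1. *qkr54B*, a KH-domain RNA-binding protein of the quaking family (chromosome 2R from 17469624 to 17475129), had 6.83, 7.31, 5.67 and 7.24 CPM in the null, against 59.7, 239, 306 and 113 CPM in PA+PB (log2 fold change -4.58, SE 0.75).

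Genes known only by number showed the same separation. *CG32425* (chromosome 3L from 20497323 to 20514107) was the steadiest of them in PA+PB, with 27.8, 52.3, 36.7 and 34.2 CPM in the null, against 258, 228, 265 and 239 CPM in PA+PB (log2 fold change -2.65, SE 0.35, FDR = 0.000867). Its PA+PB level ran from 228 to 265 CPM across libraries whose marker sums ran from 1216 to 7276 CPM, and the part of tissue content in it was not tested. Other annotated genes lie within its span on the same strand. *CG42240* (chromosome X from 6330842 to 6333028) had 49.9, 60.7, 55.2 and 39.4 CPM in the null, against 195, 754, 934 and 431 CPM in PA+PB. *CG32365* (chromosome 3L from 7869042 to 7894814) had 15.95 to 20.5 CPM in the null, against 105 to 447 CPM in PA+PB. In both genes PA+PB replicates 2 and 3, the libraries low in tissue markers, were the highest and replicate 1 the lowest.

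*Cpr5C* stood apart, because it was a matter of presence. This cuticle protein gene (chromosome X from 5804677 to 5805344) had 0 counts in all 4 null libraries, against 355, 240, 0 and 468 counts in PA+PB replicates 1 to 4, or 72.3, 19.95, 0 and 33.8 CPM. Over the group, against a floor of 3 counts, it was at least 996-fold lower in the null. PA+PB replicate 3 was also at 0, and WT libraries had 46, 0, 57 and 7 counts, so a count of 0 was not particular to the null. Of 66 cuticle genes tested, *Cpr5C* was the only one called (1.52%, against 3.38% over all genes). Their median log2 fold change of -0.71 became 0.13 without the factor of unwanted variation. A further 3 called genes, the noncoding RNA genes *lncRNA:CR44111*, *lncRNA:CR45631* and *lncRNA:CR46102* (named after their values were seen), had 0 counts in every null library, but their PA+PB levels were no more than 8.40, 8.18 and 6.23 CPM.

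**Figure D3:**
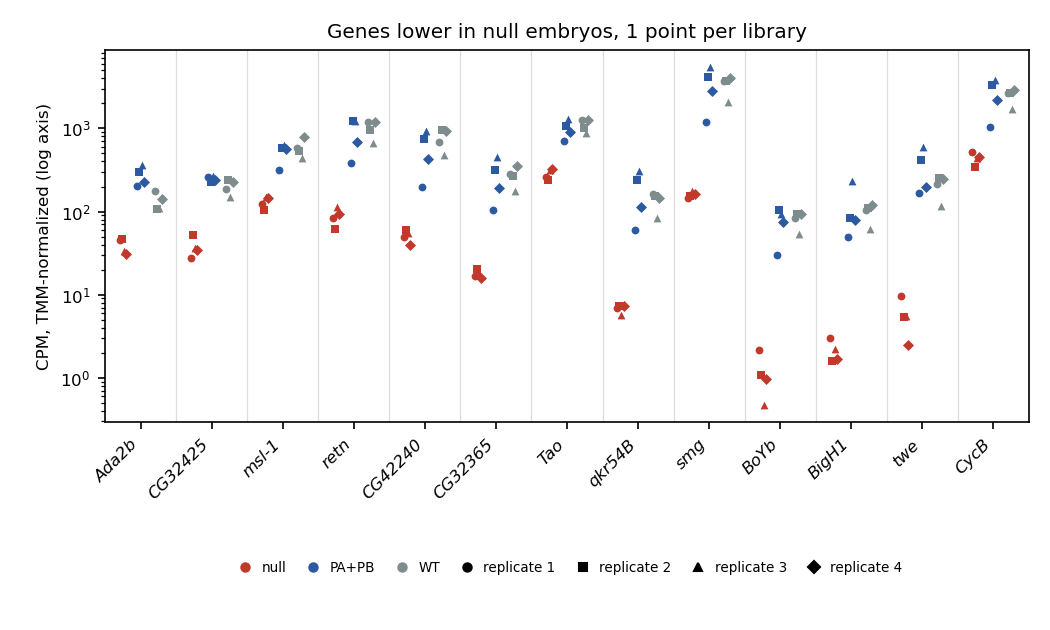
TMM-normalized CPM (log axis) of 13 genes called lower in the null, 1 point per library, with the null left of PA+PB and WT; symbols give the replicate number. In each gene the 4 null libraries lie below all PA+PB and WT libraries, for *smg* at 147 to 178 CPM against 1202 to 5435 CPM in PA+PB.

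The largest folds belonged to transcripts that were nearly absent from the null. *twe*, which encodes the Cdc25-type phosphatase Twine that is supplied by the mother (chromosome 2L from 16259414 to 16261877), had 9.73, 5.32, 5.51 and 2.502 CPM in the null, against 167, 413, 599 and 199 CPM in PA+PB (148-fold lower, log2 fold change -7.21, SE 1.41, FDR = 0.0113). Its call was lost without PA+PB replicates 2 and 3, where the log2 fold change was -5.20. *Trf4-2* had 0, 0, 0.57 and 2.70 CPM in the null, against 44.8, 156, 240 and 84.0 CPM in PA+PB (log2 fold change -7.89, SE 2.06, FDR = 0.0396). *CG42445* had 0, 0.45, 1.66 and 2.37 CPM in the null, against 35.2, 79.1, 144 and 45.3 CPM in PA+PB. Both lay at or near the floor in part of the null libraries, so their folds are poorly bounded. *Ugt36E1*, a UDP-glycosyltransferase gene, had 1.30 to 5.28 CPM in the null, against 42.0 to 306 CPM in PA+PB, and *CG4408* had 0.85 to 5.37 CPM in the null, against 31.6 to 116 CPM in PA+PB. These 4 genes also lost their calls without PA+PB replicates 2 and 3, with log2 fold changes of -6.36, -5.36, -4.68 and -4.35, in the order named. *Ptp61F*, a tyrosine phosphatase that dampens JAK/STAT signalling, had 72.3 to 136 CPM in the null, against 302 to 807 CPM in PA+PB (log2 fold change -2.37, SE 0.39). Without those 2 libraries it reached -1.85 at an FDR of 0.0571. Its long locus on chromosome 3L holds other genes on both strands.

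The same lower genes had lower levels when the null was set against WT embryos, a comparison that shares the null libraries and is therefore not independent. All 357 had a negative log2 fold change of null minus WT, with a median of -1.90, and 294 had an FDR under 0.05 there. WT minus PA+PB had a median of -0.14 at these genes. Relative to the PA+PB mean, their median log2 level was -1.92 to -1.67 in null libraries and -0.67 to -0.16 in PA libraries. In PB replicates 1 to 4 it was -2.197, -1.115, -0.436 and -1.431, and replicate 1 had only 1656080 counts on genes. *smg* had 91.2, 558, 1816 and 123 CPM in PB replicates 1 to 4. Low levels at these genes were therefore not particular to the null in every library. *smg* had 2102 to 3988 CPM in WT, *twe* 116 to 252 CPM and *retn* 670 to 1200 CPM, so that at each of the 3 genes the WT libraries lay above the null range. *smg* had 3671, 3713, 2102 and 3988 CPM in WT replicates 1 to 4, whose marker sums were 11880, 2705, 5602 and 2942 CPM. The 2 WT libraries with the lowest marker sums thus had the most *smg*, and in replicate 1 muscle and hemocyte markers made up 5395 and 4093 CPM of the sum. The part of tissue content in these levels was not tested.

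The 12 higher genes were mostly small structural RNAs and chaperones. The *U3* snoRNA gene *snoRNA:U3:54Ab*, whose RNA guides the processing of ribosomal RNA (chromosome 2R from 17145617 to 17145826), had 674, 694, 615 and 465 CPM in the null, against 3.26, 3.74, 2.56 and 4.91 CPM in PA+PB (66.8-fold higher, log2 fold change 6.06, SE 0.75, FDR = 0.000527). *7SLRNA:CR32864*, one of the genes of the RNA component of the signal recognition particle (chromosome 3R from 6822500 to 6822798), had 4195, 3694, 2718 and 2141 CPM in the null, against 51.3, 118, 394 and 95.8 CPM in PA+PB (log2 fold change 4.42, SE 0.62, FDR = 0.00169). Its close copy *7SLRNA:CR42652* had 957 to 3105 CPM in the null, against 68.6 to 388 CPM in PA+PB. *snRNA:U2:34ABb*, a gene of the U2 spliceosomal RNA, had 101, 62.9, 63.3 and 31.1 CPM in the null, against 4.48, 8.48, 11.6 and 3.75 CPM in PA+PB (log2 fold change 3.13, SE 0.59). These were the 4 higher genes that kept their calls without PA+PB replicates 2 and 3. A second U2 gene, *snRNA:U2:14B*, had 32.9 to 65.2 CPM in the null, against 2.58 to 10.3 CPM in PA+PB, and the U1 gene *snRNA:U1:95Cb* had 186 to 476 CPM in the null, against 2.53 to 13.7 CPM in PA+PB. Genes of 7SL, U1 and U2 RNA have near-identical copies, so which copy gave the reads is uncertain. Of 25 snRNA genes tested 3 (12%) were called higher, and of 135 snoRNA genes 1 (0.741%), against 0.11% over all genes.

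The heat-shock genes *Hsp70Ab* and *Hsp70Aa*, near-identical copies that encode the inducible Hsp70 chaperone, were also higher. *Hsp70Ab* had 76.5, 68.8, 41.6 and 34.1 CPM in the null, against 2.65, 1.91, 0.12 and 1.73 CPM in PA+PB (log2 fold change 4.97, SE 1.08, FDR = 0.0186). *Hsp70Aa* had 25.4, 26.7, 14.9 and 15.1 CPM in the null, against 0, 0.42, 0.24 and 0.43 CPM in PA+PB. The groups did not overlap at either copy, but the PA+PB values of *Hsp70Aa* lay at or near the floor of the libraries. *CCT3*, a subunit of the cytosolic chaperonin that folds actin and tubulin, had 241, 247, 242 and 275 CPM in the null, against 75.6, 55.5, 37.6 and 118 CPM in PA+PB (log2 fold change 1.73, SE 0.39, FDR = 0.0226). *Xbp1*, the transcription factor of the unfolded protein response, had 588, 609, 538 and 514 CPM in the null, against 261, 109, 55.9 and 322 CPM in PA+PB (log2 fold change 1.54, SE 0.41, FDR = 0.0439). In both genes the PA+PB libraries were ordered as their tissue markers, with replicate 3 lowest and replicate 4 highest, and without replicates 2 and 3 the log2 fold changes were 1.36 and 0.94 and the calls were lost. *BomT3*, a peptide of the Bomanin family induced by Toll signalling, had 69, 54, 15 and 46 counts in the null, against 0 in every PA+PB library, at least 25.0-fold higher over the group, and *CG7252* had 1.17 to 4.39 CPM in the null, against 0 to 0.083 CPM in PA+PB.

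The higher genes behaved differently from the lower ones when WT was set beside them. Their median log2 fold change of null minus WT was 1.44, with 0 of the 12 past an FDR of 0.05 in edgeR's test. WT minus PA+PB had a median of 3.17 over the same 12 genes. *7SLRNA:CR32864*, for example, had 1940 to 3499 CPM in WT, near the null, and *snoRNA:U3:54Ab* had 68.0 to 163 CPM in WT, between the null and PA+PB. In the median over the 12 genes PA+PB was thus low relative to WT as well as to the null. The same held for PA and PB embryos. Relative to the PA+PB mean, the median log2 level of the 12 genes was 2.29 to 3.64 in PA and 2.69 to 4.45 in PB libraries, against 2.57 to 3.91 in the null. High levels over the set were therefore not particular to the null, although *snRNA:U1:95Cb* had only 11.9 to 57.3 CPM in PA and 0 to 33.7 CPM in PB.

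**Figure D4:**
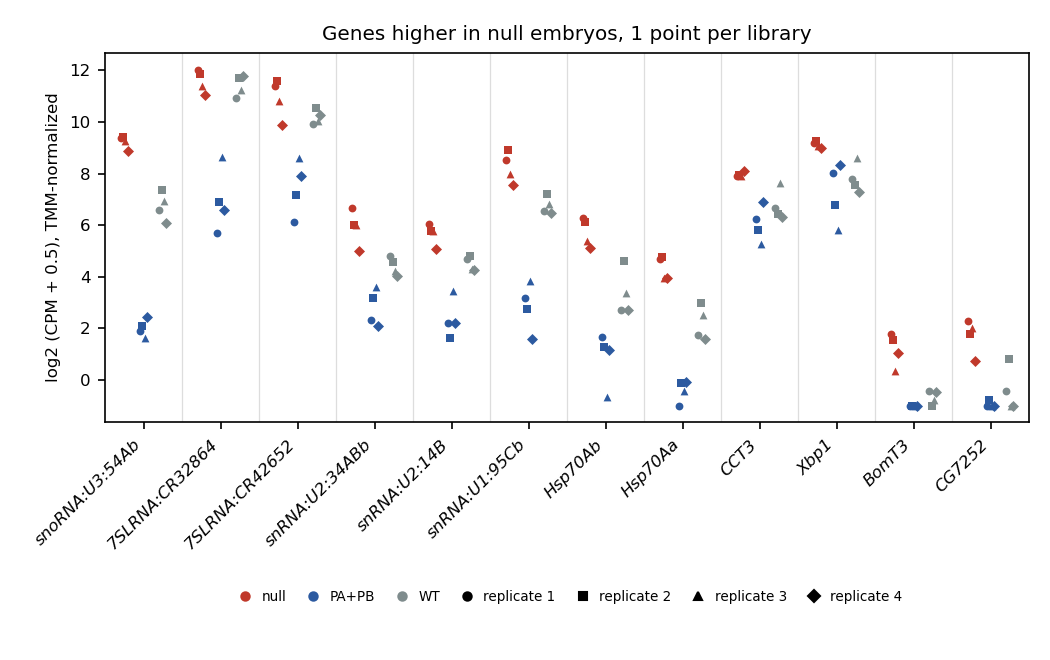
Level, as log2(CPM + 0.5), of the 12 genes called higher in the null, 1 point per library, with the null left of PA+PB and WT; symbols give the replicate number. All null points lie above all PA+PB points of the same gene, and for the 7SL genes the WT points lie near the null, at 1940 to 3499 CPM for *7SLRNA:CR32864*.

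Genes of the Gcn5 complexes other than *Ada2b* were at lower levels without passing the test. Of the 21 subunits of SAGA, ADA and CHAT 0 were called by edgeR's quasi-likelihood test, but 7 had an unadjusted p under 0.05, all lower in the null, against 13.8% of all genes. A negative fold change was seen at 20 of 21, against 6159 of 10904 over all genes, with a median of -1.50. *Gcn5*, the acetyltransferase, had 65.0, 41.2, 55.4 and 68.5 CPM in the null, against 65.8, 101, 147 and 93.3 CPM in PA+PB (log2 fold change -0.78, SE 0.41, FDR = 0.345), and the groups overlapped. *Ada3*, its partner in the catalytic module, had 40.3 to 52.98 CPM in the null, against 95.1 to 168 CPM in PA+PB (log2 fold change -1.68, SE 0.50, FDR = 0.068). *chif*, which encodes Chiffon, had a log2 fold change of -0.90 (SE 0.25, FDR = 0.0549). Without PA+PB replicates 2 and 3 the median of the 21 was -0.55. *Ada2a*, the adaptor of ATAC, had 8.91 to 12.2 CPM in the null, against 0 to 5.19 CPM in PA+PB (log2 fold change 1.32, SE 1.84, FDR = 0.808). Of 9 ATAC genes tested 1 was called (11.1%, against 3.38% over all genes). This was *Chrac-14*, a histone-fold protein shared with a chromatin remodeller, with 26.4, 26.2, 29.0 and 25.9 CPM in the null, against 163, 303, 582 and 132 CPM in PA+PB (log2 fold change -3.71, SE 0.95, FDR = 0.0365).

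Other chromatin regulators held few calls. Of 6 other acetyltransferases 0 were called by edgeR, with 4 at an unadjusted p under 0.05, all 4 lower: *nej*, the fly CBP, had 601 to 855 CPM in the null, against 995 to 1488 CPM in PA+PB (log2 fold change -0.78, FDR = 0.135), and *mof*, the acetyltransferase of dosage compensation, had 45.2 to 68.0 CPM in the null, against 72.9 to 243 CPM in PA+PB (log2 fold change -1.22, FDR = 0.115). Of 12 heterochromatin genes 2 fell (16.7%, against 3.27% over all genes), with a median of -1.28. At an unadjusted p under 0.05 in edgeR's test 5 of the 12 were lower and 0 higher, against 13.8% lower over all genes. *Su(var)3-7*, a zinc-finger partner of heterochromatin protein HP1, had 73.8 to 95.2 CPM in the null, against 138 to 272 CPM in PA+PB (log2 fold change -1.73, FDR = 0.0184), and *ADD1* had a log2 fold change of -1.51 (FDR = 0.0428), whereas the gene that encodes HP1 itself had -0.40 (FDR = 0.832). In the Polycomb and Trithorax groups 1 of 24 fell, *mor*, a core subunit of the Brahma remodeller (log2 fold change -1.03, SE 0.25, FDR = 0.0292). Of 28 Mediator subunits 1 fell, *MED26* (log2 fold change -1.91, SE 0.46, FDR = 0.0285). These shares of 4.17% and 3.57% were near the 3.27% of all genes called lower. These 5 chromatin and Mediator calls, with *Chrac-14* among them, were all lost without PA+PB replicates 2 and 3.

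Factors that act on mRNA held, with the cell cycle list, the largest counts of lower genes among the 39 lists. In mRNA decay and its regulation, 5 of 20 genes (25.0%) fell and 0 rose, against 3.27% lower over all genes, with a median of -1.03. Beside *smg* these were *Edc3*, an activator of decapping (118, 117, 135 and 148 CPM in the null, against 269, 499, 686 and 376 CPM in PA+PB), *pum*, the repressor Pumilio (242 to 342 CPM in the null, against 383 to 726 CPM in PA+PB), *PAN3*, a subunit of a deadenylase (286 to 418 CPM in the null, against 546 to 1106 CPM in PA+PB), and *me31B*, a helicase that represses maternal mRNA (204 to 257 CPM in the null, against 549 to 1854 CPM in PA+PB; named after its values were seen). Their log2 fold changes were -2.25, -1.13, -1.35 and -3.09. The deadenylase scaffold *Not1* had -0.92 (FDR = 0.0567) and the catalytic subunit *twin* had 0.40 (FDR = 0.788), so the list did not move as a block. Of 9 genes of the miRNA and siRNA pathways 2 fell (22.2%, against 3.27% over all genes). These were *gw*, the GW182 partner of Argonaute (437 to 530 CPM in the null, against 809 to 1555 CPM in PA+PB, log2 fold change -1.81), and *AGO1* (438 to 640 CPM in the null, against 738 to 1047 CPM in PA+PB, log2 fold change -1.11). *Dcr-1* had 0.75 (FDR = 0.601). Without PA+PB replicates 2 and 3 only *smg* of these genes stayed called.

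The piRNA pathway, which silences transposons in the germline, had the lowest median of the 39 lists. Its 26 genes had a median log2 fold change of -2.81, with 23 negative, against 6159 of 10904 over all genes. At an unadjusted p under 0.05 in edgeR's test 16 were lower and 0 higher, against 13.8% lower over all genes, but 2 were called (7.69%, against 3.27% over all genes). *mael* (Maelstrom) had 8.87, 13.1, 8.58 and 10.7 CPM in the null, against 55.4, 190, 260 and 88.2 CPM in PA+PB (log2 fold change -4.44, SE 1.12, FDR = 0.033), and the other was *BoYb*. *piwi*, the nuclear Argonaute, had 3.71, 2.98, 0 and 1.70 CPM in the null, against 8.76, 52.0, 45.2 and 23.6 CPM in PA+PB (log2 fold change -4.46, SE 1.98, FDR = 0.252), and *aub* had 9.31 to 15.9 CPM in the null, against 14.1 to 55.0 CPM in PA+PB (log2 fold change -1.50, SE 1.44). Both were low transcripts with wide errors. Without PA+PB replicates 2 and 3 the median of the list was -1.75, still the lowest of the lists, and *BoYb* alone was called. The germ cell list itself (*vas* among its 9 genes, with 1.54 to 9.57 CPM in the null, against 4.48 to 13.2 CPM in PA+PB) held 0 calls, with 0 genes lower and 1 higher at an unadjusted p under 0.05. Its median was -0.88, with 6 negative and 3 positive fold changes, and -0.04 without PA+PB replicates 2 and 3. The members ran from *osk* at -4.37 (SE 2.12, FDR = 0.297) and *pgc* at -4.18 (SE 2.33, FDR = 0.383) to *ovo* at 1.23 (SE 0.50, FDR = 0.201).

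Genes of the mitotic cycle fell beside *twe*. Of 27 cell cycle genes 5 (18.5%) were lower and 0 higher, against 3.27% and 0.11% over all genes, with a median of -1.49. *CycB*, the mitotic cyclin B, had 513, 347, 444 and 454 CPM in the null, against 1046, 3341, 3865 and 2190 CPM in PA+PB (log2 fold change -2.72, SE 0.53, FDR = 0.0113). *pim*, the securin, had 17.7 to 31.4 CPM in the null, against 84.7 to 469 CPM in PA+PB (log2 fold change -3.91), and *polo*, the mitotic kinase, had 204.5 to 433 CPM in the null, against 483 to 1677 CPM in PA+PB (log2 fold change -1.90). *fzy*, the Cdc20 activator of the anaphase-promoting complex (named after its values were seen), had a log2 fold change of -1.49, and it overlaps *cact* on the other strand. By contrast, the zygotic Cdc25 gene *stg* had 0.71 (SE 0.51, FDR = 0.531) and *CycE*, the cyclin of S phase entry, had -0.66 (SE 0.48, FDR = 0.544), with 117 to 216 CPM in the null, against 194 to 209 CPM in PA+PB. Replication genes had 0 calls of 18 and a median of -0.02. All 5 cell cycle calls were lost without PA+PB replicates 2 and 3, where the median was -0.48.

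**Figure D5:**
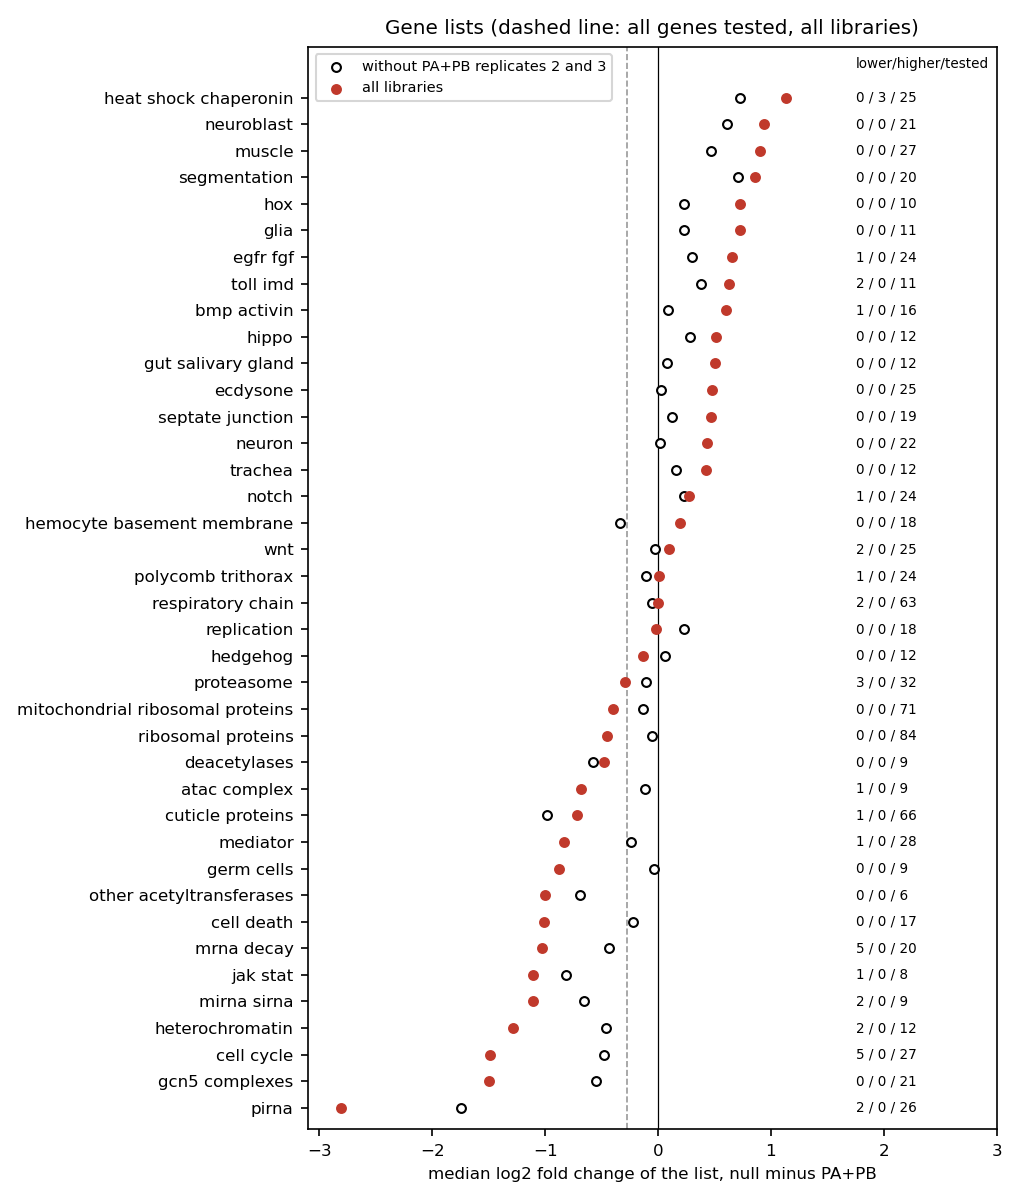
Median log2 fold change (null minus PA+PB) of each of the 39 gene lists with all libraries (filled) and without PA+PB replicates 2 and 3 (open); the dashed line is the median of all genes tested with all libraries, and the numbers give genes called lower, called higher and tested. The piRNA list is lowest, at -2.81 and -1.75, and most other lists move toward 0 without the 2 libraries.

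Signalling pathways held 0, 1 or 2 calls each, all lower. In the lists with a call the called share ran from 4.17% (Notch, and EGF and FGF) to 18.2% (Toll), against 3.27% lower over all genes, and it rested on 1 or 2 genes. In the Toll pathway 2 of 11 genes fell: *cact*, the IkB-type inhibitor Cactus (168, 151, 160 and 164 CPM in the null, against 379, 940, 980 and 600 CPM in PA+PB; log2 fold change -2.30, SE 0.45, FDR = 0.0113), and *Tl*, the receptor (251 to 412 CPM in the null, against 420 to 995 CPM in PA+PB; log2 fold change -1.21), while the transcription factor *dl* had 0.47 (FDR = 0.899). In the Wnt pathway 2 of 25 fell, *pygo*, a coactivator of Armadillo (log2 fold change -2.02, FDR = 0.0204), and *wls*, the carrier of Wnt ligands (log2 fold change -1.65, FDR = 0.0324), whereas the ligand *wg* had 0.49 (FDR = 0.89) and *arm* 0.02 (FDR = 0.979). *gro*, the Groucho corepressor, was the single call of 24 in the Notch list (233 to 305 CPM in the null, against 504 to 1020 CPM in PA+PB; log2 fold change -1.40), and the receptor *N* had 0.07 (FDR = 0.959). *Cbl*, the ubiquitin ligase that downregulates receptors, was the single call of 24 in the EGF and FGF list (log2 fold change -1.62), *put*, a type II receptor, that of 16 in the BMP list (log2 fold change -1.73), and *dome*, the cytokine receptor, that of 8 in the JAK/STAT list (log2 fold change -1.37). Hedgehog and Hippo genes had 0 calls of 12 each, with *hh* at 0.88 (SE 1.49) and *yki* at 1.10 (SE 0.90). Each call in these lists was lost without PA+PB replicates 2 and 3. All 4 null libraries lay below all PA+PB libraries at each of the 8 genes, as at 354 of the 357 genes called lower, against 15.7% of all genes tested.

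The heat-shock and chaperonin list was the only one of the 39 with genes called higher, 3 of 25 (12.0%, against 0.11% over all genes) and 0 lower. Of the 25, 23 had a positive fold change, against 4745 of 10904 over all genes, and the median was 1.14. At an unadjusted p under 0.05 in edgeR's test 10 were higher, against 3.31% of all genes. *CCT3* is a constitutive member and was the only chaperonin CCT subunit called. The other CCT subunits had log2 fold changes from 0.66 (*CCT2*, FDR = 0.743) to 1.42 (*CCT8*, FDR = 0.130). The further Hsp70 genes *Hsp70Ba* and *Hsp70Bb* were not called, at 4.29 (FDR = 0.178) and 2.05 (FDR = 0.626). Among other members that did not pass, *Hsp83* had 434 to 558 CPM in the null, against 52.4 to 450 CPM in PA+PB (log2 fold change 0.89, SE 0.50, FDR = 0.383). *Hsc70-4* had 3004 to 3399 CPM in the null, against 1275 to 2756 CPM in PA+PB (log2 fold change 0.37, FDR = 0.544). The median was 0.73, with 0 calls, without PA+PB replicates 2 and 3. Among the respiratory chain genes 2 of 63 fell, both of the ATP synthase: *ATPsyndelta* (89.5 to 122 CPM in the null, against 260 to 598 CPM in PA+PB; log2 fold change -2.10) and *ATPsynCF6* (log2 fold change -1.78). Their share of 3.17% was near the 3.27% of all genes called lower, and both calls were lost without PA+PB replicates 2 and 3. Cytosolic and mitochondrial ribosomal proteins had 0 calls of 84 and of 71 in edgeR, with 22 and 4 lower and 3 and 0 higher at an unadjusted p under 0.05.

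Tissue and patterning genes gave no calls. The lists of Hox, segmentation, neuroblast, neuron, glia, muscle, hemocyte, trachea, septate junction and gut genes held 0 called genes by edgeR, with medians from 0.20 (hemocyte and basement membrane) to 0.94 (neuroblast), and at an unadjusted p under 0.05 they held 4 lower and 11 higher genes in sum. *elav*, the neuronal RNA-binding protein, had 405, 376, 569 and 622 CPM in the null, against 469, 213, 39.9 and 391.6 CPM in PA+PB (log2 fold change 0.69, SE 0.59, FDR = 0.631). *Mef2*, the muscle transcription factor, had 357, 376, 633 and 811 CPM in the null, against 407, 161, 42.1 and 280 CPM in PA+PB (log2 fold change 1.15, SE 0.53, FDR = 0.277). The Hox gene *Ubx* had 108 to 203 CPM in the null, against 0.12 to 81.7 CPM in PA+PB (log2 fold change 1.54, SE 0.995, FDR = 0.471). In each of the 3 genes PA+PB replicate 3 was the lowest library by far, and replicates 1 and 4 lay nearest the null. Without replicates 2 and 3 the medians of the neuron and glia lists were 0.02 and 0.23, and the hemocyte list turned to -0.33. The segmentation, neuroblast and muscle lists kept the highest of these medians, at 0.71, 0.61 and 0.47, against -0.0025 over all genes in that fit.

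The genes called lower were well expressed and long. With genes divided by mean CPM into 3 groups of equal size, 9.30% of the highest group were called lower, against 0.44% of the middle and 0.0825% of the lowest, so that the share of calls grew with the level. The median exonic length was 3250 bases at the lower genes and 478 bases at the higher genes, against 2011 bases over all genes tested. By chromosome, 4.80% of genes on X were called lower, against 2.88% to 3.30% on 2L, 2R, 3L, 3R and 4.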

How the data were processed

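Total RNA of pooled, hand-selected embryos was made into libraries with the Ovation RNA-seq system (NuGEN) and sequenced. The authors trimmed reads with Trimmomatic, mapped them with HISAT2 to dm6 and deposited raw counts of reads per gene, made with HTSeq 0.11.1. The header of the deposited table is shifted by 1 cell relative to its values, and columns were read accordingly. Of 17807 gene identifiers, 17710 matched the Ensembl annotation that gave symbols and positions. The 5 HTSeq summary values, 2 transgenes and 138 rRNA genes were left out.

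Counts were tested with edgeR 4.0.16 (R 4.3.3): filterByExpr, TMM, and quasi-likelihood tests with 1 factor of unwanted variation (estimated from deviations of replicates, after the RUVs method) in a single fit of all 20 libraries. Genes were called at a Benjamini-Hochberg FDR under 0.05 over 10904 genes where the log2 fold change reached 0.5 in size. Each SE is the fold change divided by the root of F. A floor of 3 counts was 0.100 to 0.156 CPM in null and 0.216 to 0.611 CPM in PA+PB libraries; it covers counting error only. The code was tested on simulated counts. Members, gene lists and tests were chosen with earlier results of these data known. Named genes were *Ada2b*, higher genes, the 10 lower genes with the smallest p, the 6 with the largest fold, at most 4 called and the first 2 members of each list, and exceptions are stated. Promoter sequences were not used here. DESeq2 1.42.0 gave an alternative test and size factors. Other alternatives changed the factors, normalization, filter, fold threshold and libraries.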

Additional observations from a re-analysis of the deposited data

Results flagged for a closer look

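In groups of 4 libraries, a library was listed here when its gap to the nearest other library exceeded 0.829 of the group's range, which chance gives in about 1 of 20 groups; 210 groups of 102 named genes and library measures were looked at and 10 met it. Replicate 1 of PA+PB had 63.2% of reads not aligned, against 12.1% to 14.0% in the other 3. *CCT3* had 275 CPM in null replicate 4, against 241 to 247 CPM in the other null libraries. *Chrac-14* had 29.0 CPM in null replicate 3, against 25.9 to 26.4 CPM. *mor* had 341 CPM in null replicate 2, against 418 to 433 CPM, and *ADD1* had 67.7 CPM there, against 98.3 to 99.8 CPM. *Su(var)3-7* had 138 CPM in PA+PB replicate 1, against 264 to 272 CPM in the other PA+PB libraries, and *Stat92E*, the transcription factor of JAK/STAT signalling, had 179 CPM, against 261 to 267 CPM. *yki* had 9.16 CPM in PA+PB replicate 3, against 36.4 to 37.1 CPM. *Hsc70-4* had 1270 CPM in PA+PB replicate 2, against 2610 to 2760 CPM. *CG7252* had 0.0831 CPM in PA+PB replicate 2 and 0 in the other 3.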

How the results depend on the processing

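The call of *Ada2b* held under all 20 alternatives, with a log2 fold change from -2.90 to -2.40. Against 369 genes called, 625 were called with 2 factors of unwanted variation, 678 with only the null and PA+PB libraries in the fit, 1421 with those libraries and no factor, 232 with DESeq2's size factors, 219 with upper quartile normalization, 1393 with DESeq2's Wald test, 72 without a filter on low counts and 741 with a stricter filter, where 105 were higher. With 1 library left out 30 to 702 genes were called, and 34 to 735 with the same genes tested. The latter were 54, 34, 59 and 90 without null replicates 1 to 4, and 735, 65, 288 and 476 without PA+PB replicates 1 to 4. Without PA+PB replicates 2 and 3, 16 were called, all among the 369; the fits with the same genes tested and this one were chosen after seeing the data. Without the factor 354 were called, of which 292 were shared, and the median of all genes was 0.49 in place of -0.27; the medians of the Mediator, ATAC, deacetylase, mitochondrial ribosomal, respiratory chain, proteasome, cuticle, cell death, hedgehog and replication lists changed sign with it, those of the respiratory chain and replication (both near 0) also with either other normalization. The difference in genes detected ran from 1428 to 2677 with 1 library left out, and with 3 null libraries the smallest exact p is 0.0571. With the replicate number as a block 251 genes were called. Same-numbered libraries deviated with correlations of -0.112 to -0.0203, and other pairs with -0.0848 to 0.0922. This gave no sign of pairing by number, but it cannot exclude a shared collection or batch. The cause of these moves was not tested. Promoter letters were not searched, since no promoter sequences were used here.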

Other observations

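The proteasome list split by subcomplex, a division made after its values were seen and given with no test. All 14 genes of the core particle, which holds the proteolytic sites, had negative log2 fold changes in null minus PA+PB, from -3.63 to -0.55 with a median of -1.87, and 3 were called lower, all of which lost their calls without PA+PB replicates 2 and 3. Of 18 genes of the regulatory particle, which unfolds substrates, 15 had positive and 3 negative fold changes, with a median of 0.92 and 0 called by edgeR. Over all 10904 genes tested, 6159 fold changes were negative and 4745 positive, and 3.27% of genes were called lower. *Prosbeta3* had 21.7, 30.0, 22.1 and 20.1 CPM in the null, against 98.2, 259, 399 and 110 CPM in PA+PB, *Prosbeta7* had 63.6 to 77.7 CPM in the null, against 155 to 690 CPM in PA+PB, and *Prosalpha6* had 30.1 to 55.5 CPM in the null, against 126 to 256 CPM in PA+PB. The 2 medians kept their signs without PA+PB replicates 2 and 3 (-1.32 and 0.55), without the factor of unwanted variation (-1.56 and 1.22), with DESeq2's size factors (-1.78 and 1.03) and with upper quartile normalization (-1.73 and 1.04). Core particle genes are shorter, with a median exonic length of 971 bases against 1589 bases, and the part of length was not tested.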
